A study of Mus musculus with 18 samples.

Results

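Genes that mark macrophages of the fetal lung were examined by their symbols, which are 10 of the 23420 rows in each of 3 tables of bulk RNA-Seq from mouse embryonic lungs. They are the receptor of the macrophage growth factor CSF1 (*Csf1r*), the fractalkine receptor (*Cx3cr1*), the mannose receptor (*Mrc1*), the hyaluronan receptor (*Lyve1*), the 3 chains of complement C1q (*C1qa*, *C1qb*, *C1qc*), the signaling adaptors *Tyrobp* (DAP12) and *Fcer1g* (the common Fc receptor gamma chain), and the calcium-binding protein IBA1 (*Aif1*). Each gene was found once in every table.

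Macrophages reach the lung bud early, from precursors that arise in the yolk sac and later the fetal liver, and they depend on signals through CSF1R. They take up dying cells and debris, and tissue macrophages are a main source of C1q, the first component of the classical complement cascade. The adaptors TYROBP and FCER1G carry activation motifs (ITAMs) in their tails and pass on signals from receptors that have none. *Lyve1* and *Mrc1* are also made by lymphatic and other endothelial cells, so that these 2 genes mark macrophages less strictly than the others.

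The first experiment compared 3 lung libraries labelled Vangl1-/-; Vangl2-/- with 3 libraries labelled Vangl1-/-, at E12.5 (embryonic days post coitum). Both groups were thus labelled as lacking *Vangl1*, and they differed in *Vangl2*. The second compared Wnt5af/f; Dermo1Cre with Wnt5af/+; Dermo1Cre at E12.5, and the third Wnt5af/f; Sox9Cre with Wnt5af/+; Sox9Cre at E13.5, with 3 libraries in each group. In both, the controls also carried the Cre and 1 floxed allele. *Dermo1*Cre acts in the mesenchyme and *Sox9*Cre in the epithelium, and neither is aimed at macrophages. The labels do not say whether libraries came from separate embryos or how many embryos went into one, so p-values measure the spread between these libraries, which may be technical. Values are normalized counts, which are reads on a gene divided by a size factor of the library, and the libraries held between 15945393 and 19814346 reads on genes. *Vangl2* lay between 277 and 406 normalized counts in the *Vangl1/2* controls and between 79.8 and 89.6 in the mutants (log2 fold change −1.96, limma's adjusted p = 0.0318). *Vangl1* RNA was still read in both groups, with 165 ± 52.8 normalized counts in the controls and 252 ± 19.5 in the mutants (SD, n = 3). *Wnt5a* was not called in either *Wnt5a* experiment (log2 fold changes −0.55 and −0.12, limma's adjusted p = 0.406 and 1.0). In whole lungs, fewer macrophages and less RNA per macrophage cannot be told apart.

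The 3 C1q genes lie side by side on 18675 bases of chromosome 4 (GRCm38), all on the minus strand. *C1qb* covers 136880129 to 136886187, *C1qc* 136889804 to 136893065 and *C1qa* 136895917 to 136898803. *Fcer1g* lies on chromosome 1 from 171229572 to 171234365 on the minus strand, and *Tyrobp* on chromosome 7 from 30413760 to 30417585 on the plus strand. PU.1, the transcription factor that macrophage development requires, binds DNA around the letters GAGGAA, known as the PU box. RefSeq's table of promoters (GRCm38.p6) held 6 of the 10 genes. The 250 bases before the start of transcription given there were searched for GAGGAA on both strands, and distances count from that start. It can differ from the gene positions above, and the window of *C1qc* lies partly within the span given for that gene. These letters stood in 4 of the 6 windows (*Mrc1*, *C1qb*, *C1qc* and *Aif1*), and in 23.3% of the 32851 windows of all genes. Not in the table were *Csf1r*, *C1qa*, *Tyrobp* and *Lyve1*. The windows of the neighbors *C1qb* and *C1qc* are shown because their RNA levels varied together (r = 0.61, described at the end), that of *Mrc1* because it holds the letters below 3 times, and that of *Fcer1g* because it had the largest difference between groups. Capitals mark GAGGAA, or TTCCTC where it is on the other strand, and each line runs 5′ to 3′ on the strand of the gene.
C1qb (chr4:136886201-136886450, minus strand): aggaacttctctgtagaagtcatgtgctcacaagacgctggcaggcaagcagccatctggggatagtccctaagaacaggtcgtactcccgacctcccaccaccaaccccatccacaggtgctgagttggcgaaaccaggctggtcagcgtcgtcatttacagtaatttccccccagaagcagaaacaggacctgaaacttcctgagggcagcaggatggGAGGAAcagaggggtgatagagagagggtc
C1qc (chr4:136892915-136893164, minus strand): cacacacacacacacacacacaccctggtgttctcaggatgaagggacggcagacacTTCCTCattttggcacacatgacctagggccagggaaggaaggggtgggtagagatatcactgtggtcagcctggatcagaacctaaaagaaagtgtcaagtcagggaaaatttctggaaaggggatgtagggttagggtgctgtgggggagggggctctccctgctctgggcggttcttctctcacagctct
Mrc1 (chr2:14229164-14229413, plus strand): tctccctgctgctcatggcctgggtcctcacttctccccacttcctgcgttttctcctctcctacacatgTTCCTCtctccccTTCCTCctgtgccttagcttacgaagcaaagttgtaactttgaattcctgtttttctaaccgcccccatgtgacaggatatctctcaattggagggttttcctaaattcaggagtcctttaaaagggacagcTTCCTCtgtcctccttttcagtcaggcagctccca
Fcer1g (chr1:171234350-171234599, minus strand): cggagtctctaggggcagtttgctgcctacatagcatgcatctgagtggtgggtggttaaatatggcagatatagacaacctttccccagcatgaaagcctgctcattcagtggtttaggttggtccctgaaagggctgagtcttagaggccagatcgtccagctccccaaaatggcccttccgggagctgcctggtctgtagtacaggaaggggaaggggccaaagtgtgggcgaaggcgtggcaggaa
The letters begin 30 bases before the start in *C1qb* and 193 bases before it in *C1qc*. In *Mrc1* they occur 3 times, at 180, 167 and 35 bases, and in *Aif1* once, 7 bases before the start. The windows of *Fcer1g* and *Cx3cr1* do not hold these 6 letters. A match of letters is a description and does not show that a factor was bound, and this form of the motif was settled on after several forms had been counted.

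All 10 genes were detected in all 18 libraries and together took between 163 and 269 RPM, that is, reads scaled by the library's total of reads on genes. To set the genes side by side, reads were divided by the length of all exons of the gene and scaled to library depth (RPKM). In the *Dermo1*Cre controls, *Lyve1* was the most abundant, with 19.2 ± 1.38 RPKM (SD, n = 3), and was above every other gene in each library. *C1qb* (14.1 ± 0.49), *C1qa* (11.7 ± 2.31), *Tyrobp* (9.06 ± 2.32), *Fcer1g* (8.79 ± 0.64) and *Mrc1* (8.36 ± 0.13) followed, and each of them overlapped with its neighbor in this order. *C1qc* (6.46 ± 0.93) and *Csf1r* (5.63 ± 0.74) overlapped as well. *Cx3cr1* (4.83 ± 0.13) lay below both, and *Aif1* (0.89 ± 0.28) lay far below all others. Low counts make *Aif1* the least precise of the genes, since it rested on between 14.0 and 40.6 normalized counts.

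Other markers of tissue macrophages were present in the same libraries. Of the 16 listed, 13 passed the filter on low values in the *Vangl1/2* experiment and 14 in each of the others, where the filter keeps genes that reach 10 normalized counts in 3 or more of 6 libraries. F4/80 (listed as *Emr1*) had 122 ± 9.76 normalized counts and the lysosomal protein *Cd68* 139 ± 1.11 in the *Dermo1*Cre controls (SD, n = 3), while *Cd163* and *Timd4*, markers of subsets of resident macrophages, had 0.999 ± 0.0070 and 3.32 ± 2.27. Of the 8 lymphoid markers 1 passed the filter, but 2 control libraries stood apart in them. The 8 markers summed to 159 normalized counts in *Dermo1*Cre control replicate 3 and 175 in *Sox9*Cre control replicate 1, against 37.8 to 90.8 in the other 16 libraries. *Cd3g*, a chain of the T cell receptor complex, had 33.7 and 25.8 in these 2 libraries and at most 2.00 in the others, and *Rag1*, which developing lymphocytes use to rearrange their receptor genes, had 24.8 and 14.9 against at most 3.97. These 2 libraries also had the highest *Csf1r* of their experiments, and the part of lymphoid cells in the macrophage values was not tested. The 10 blood endothelial markers summed to between 14031 and 16739 normalized counts and the 10 macrophage genes to between 3062 and 4352, sums that depend on the genes listed and do not measure the share of a cell type.

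**Figure D1:**
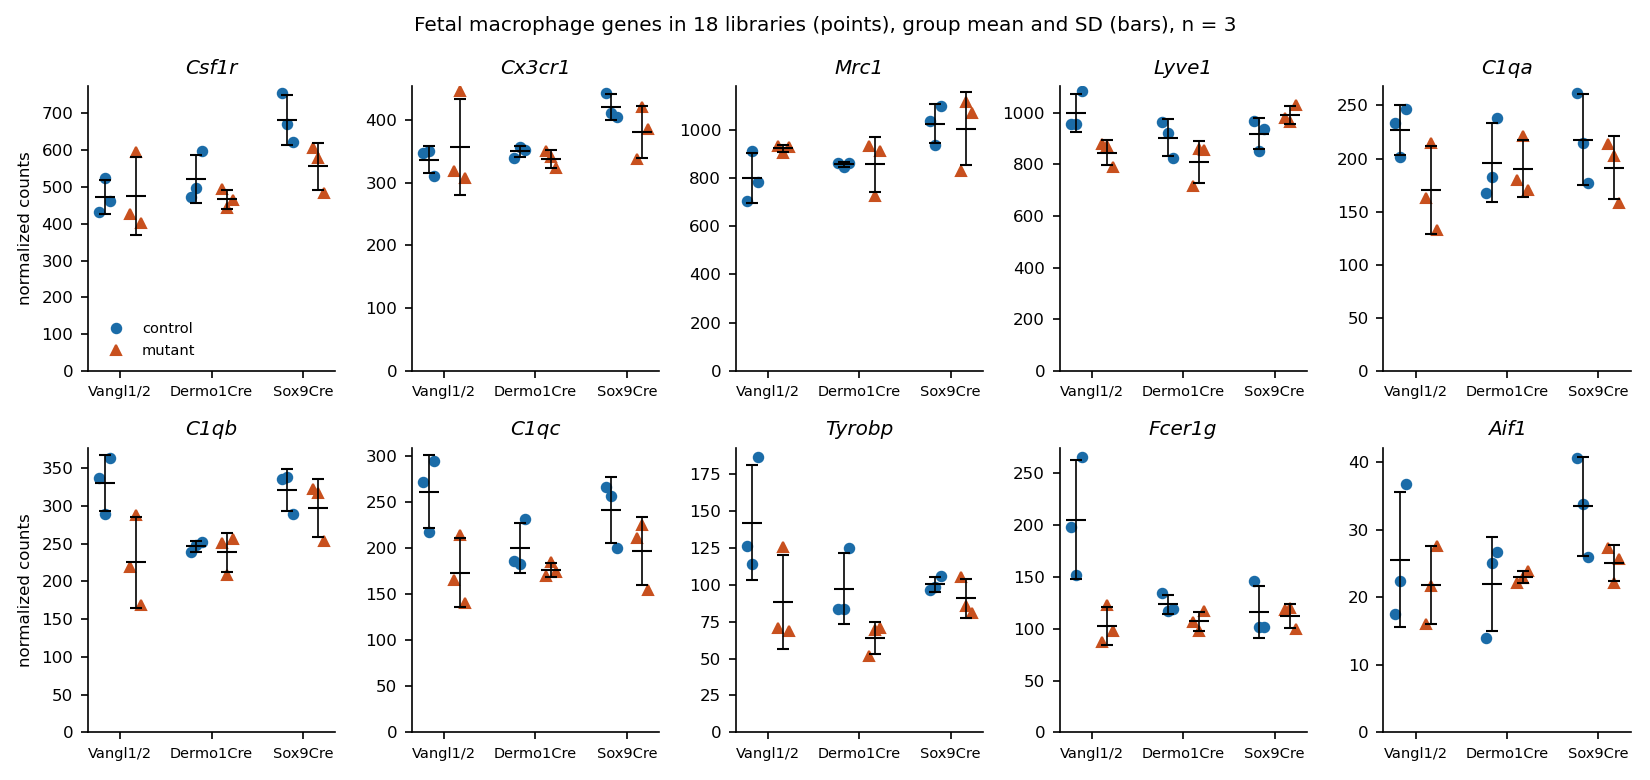
Normalized counts (y axis, from 0) of the 10 macrophage genes in every library of the 3 experiments (x axis), with the group mean and SD (n = 3). *Fcer1g* is lower in each *Vangl1/2* mutant than in each control, *Csf1r* is lower in each *Sox9*Cre mutant, and most other groups overlap.

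The *Vangl1/2* comparison asked which genes change when *Vangl2* is lost in a lung that already lacks *Vangl1*. None of the 10 macrophage genes passed the threshold of 0.05 for the adjusted p-value by limma, edgeR or DESeq2. At an unadjusted p below 0.05, limma found 5 of the 10 lower in the mutants and none higher, edgeR found 5 and DESeq2 4. Of all 14303 genes, limma found 8.56% lower at that level and edgeR 1557 genes, and DESeq2 found 1455 of 15970. After adjustment limma and edgeR each called 1 gene of all, or 0.00699%, and DESeq2 called 20, or 0.125%. The log2 fold changes of 8 of the 10 were below 0, against 51.2% of all genes, with a median of −0.34 against −0.01 over all genes. The genes with the lower values were the C1q chains, the ITAM adaptors and *Lyve1*.

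The 3 C1q chains had lower means in the mutants. *C1qa* had 233, 201 and 247 normalized counts in the 3 controls and 163, 215 and 133 in the mutants. *C1qb* had 337, 290 and 364 in the controls and 219, 288 and 168 in the mutants. *C1qc* had 272, 218 and 295 in the controls and 165, 215 and 141 in the mutants. Mutant replicates 1 and 3 were low for all 3 chains, and mutant replicate 2 came within 2.09 normalized counts of the lowest control for *C1qb* and 3.25 for *C1qc*, and above it for *C1qa*. The log2 fold changes were −0.44 (SE 0.19), −0.58 (SE 0.20) and −0.60 (SE 0.19), with adjusted p-values by limma of 0.245, 0.233 and 0.233. The shares of the chains in their sum differed little. *C1qa* made up 27.8% ± 0.56 of it in the controls and 29.9% ± 0.14 in the mutants (SD, n = 3), and *C1qb* 40.3% ± 0.47 and 39.4% ± 1.16.

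The ITAM adaptors had the largest differences of the 10. *Fcer1g* had 198, 152 and 266 normalized counts in the controls and 87.6, 123 and 97.5 in the mutants, so that the groups did not overlap. Its log2 fold change was −0.97 (SE 0.23), with an adjusted p of 0.233 by limma, 0.239 by edgeR and 0.0751 by DESeq2. *Tyrobp* had 126, 114 and 186 in the controls and 70.4, 125 and 68.9 in the mutants. Mutant replicate 2 lay within the range of the controls, and the log2 fold change of −0.70 (SE 0.28) had an adjusted p of 0.235 by limma. A further list held immune receptors, kinases and other signaling proteins, not all of which work with these adaptors. Of its 13 tested genes none was called, 10 had log2 fold changes below 0 and the median was −0.13. *Fcgr1*, a high-affinity receptor for IgG, had the smallest p of them. Their summed level was between 1566 and 1666 normalized counts in the controls and between 1454 and 1650 in the mutants, which overlapped.

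The cell-surface receptors split. *Csf1r* had 433, 524 and 462 normalized counts in the controls and 428, 596 and 403 in the mutants, and *Cx3cr1* had 347, 349 and 311 against 318, 445 and 307. For both, the mutant values spanned the control values, with log2 fold changes of −0.01 (SE 0.16) and 0.07 (SE 0.16). *Mrc1* had 702, 910 and 784 in the controls and 934, 904 and 928 in the mutants, a log2 fold change of 0.21 (SE 0.11). *Lyve1* had 955, 957 and 1085 in the controls and 878, 870 and 788 in the mutants. The groups of *Lyve1* did not overlap, but the difference was small (log2 fold change −0.24, SE 0.10) and had an adjusted p of 0.240 by limma. *Aif1* had 17.6, 22.4 and 36.8 in the controls and 16.1, 21.7 and 27.6 in the mutants, which overlapped. In all, the groups did not overlap with the mutants lower for 4 genes (*C1qb*, *C1qc*, *Fcer1g* and *Lyve1*), and for 8.68% of all genes. The lymphatic endothelial markers, which *Lyve1* shares a cell type with, had log2 fold changes above 0 in 5 of 5 tested genes (median 0.41), although that of *Pdpn* was only 0.0007. With the trend with exon length described next removed, the median was 0.22 and *Reln* turned to −0.09. The 10 blood endothelial markers had a median of 0.00.

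Apart from *Lyve1*, the genes with lower values in the *Vangl1/2* mutants were short ones. The 6 genes with fewer than 2000 exon bases (the C1q chains, *Tyrobp*, *Fcer1g* and *Aif1*) had log2 fold changes below 0 in 6 of 6, with a median of −0.59, and the 4 longer genes had a median of 0.03. Over all genes of this table, the median was −0.31 for the 1836 genes under 2000 bases and 0.03 for the 12351 longer ones. The libraries themselves differed in this respect. In control replicates 1 and 3, the log2 level decreased by 0.15 and 0.17 for each doubling of exon length, relative to the mean of each gene, and in control replicate 2 and the 3 mutants it increased by 0.05 to 0.12. When the trend with length was removed from each library, the median of the 10 genes became −0.10, and those of the short and long genes −0.24 and −0.01. *Fcer1g* then had a log2 fold change of −0.57 (SE 0.17), *C1qc* −0.37 (SE 0.15) and *C1qa* −0.07 (SE 0.16), and 2 genes (*Fcer1g* and *C1qc*) remained at an unadjusted p below 0.05. Of all 14187 genes in this setting, 1026 were lower and 947 higher at that level. The part of RNA quality or library preparation in these values was not tested.

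Ratios between the macrophage genes were compared across libraries, first of short genes over long ones. Such ratios depend on a library's slope with exon length by construction. The sum of the C1q chains over *Csf1r* was 1.95 in control replicate 1 and 1.96 in control replicate 3 of this experiment. It was 1.35 in control replicate 2 and lay between 1.07 and 1.39 in the 16 libraries other than these 2 controls, mutants and all other experiments included. *Fcer1g* over *Cx3cr1* was 0.571 and 0.855 in control replicates 1 and 3, and between 0.247 and 0.435 in the other 16. Its highest value among the 16 was control replicate 2. Ratios between long genes set control replicates 1 and 3 apart less. *Mrc1* over *Csf1r* was 1.62 and 1.70 in them, and between 1.37 and 2.30 in the other 16. *Cx3cr1* over *Csf1r* was 0.802 and 0.673 in them, and between 0.556 and 0.794 in the other 16. These 2 controls also had the lowest slopes with length of all 18 libraries, as the plot of these ratios against the slope shows. Without control replicate 2, limma called 7 of the 10 genes (*C1qa*, *C1qb*, *C1qc*, *Tyrobp*, *Fcer1g* and *Lyve1* lower, *Mrc1* higher), but also 6183 of the 14303 genes, or 43.2%. With control replicate 2 as the lone control, a choice made after seeing the data, *Fcer1g* had a log2 fold change of −0.57. Without control replicate 1, control replicate 3 or mutant replicate 1, the number at an unadjusted p below 0.05 was 2, and without mutant replicate 3 it was 1. In the order named, 232, 299, 527 and 355 of all 14303 genes were lower at that level, and 534, 757, 918 and 752 higher. In 1 fit of all 18 libraries, which shares the spread of the other experiments, limma called 4 of the 10 (*C1qb*, *C1qc*, *Tyrobp* and *Fcer1g*, lower) and 22.2% of all genes.

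**Figure D2:**
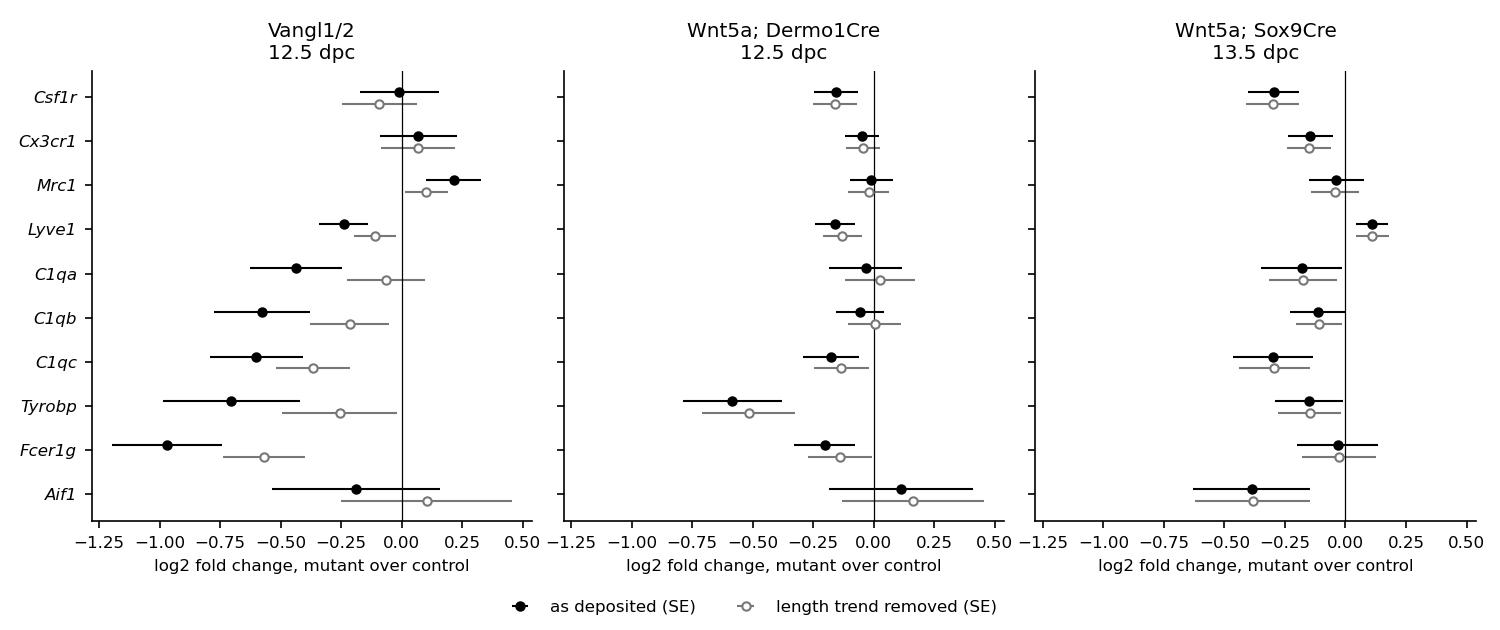
Log2 fold change of mutant over control (x axis) with its standard error for the 10 macrophage genes in the 3 experiments, as deposited (filled) and after each library's trend with exon length was removed (open). In the *Vangl1/2* panel the open points of the short genes lie nearer to 0, with *Fcer1g* moving from −0.97 to −0.57, and in the *Sox9*Cre panel the pairs of points nearly coincide.

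**Figure D3:**
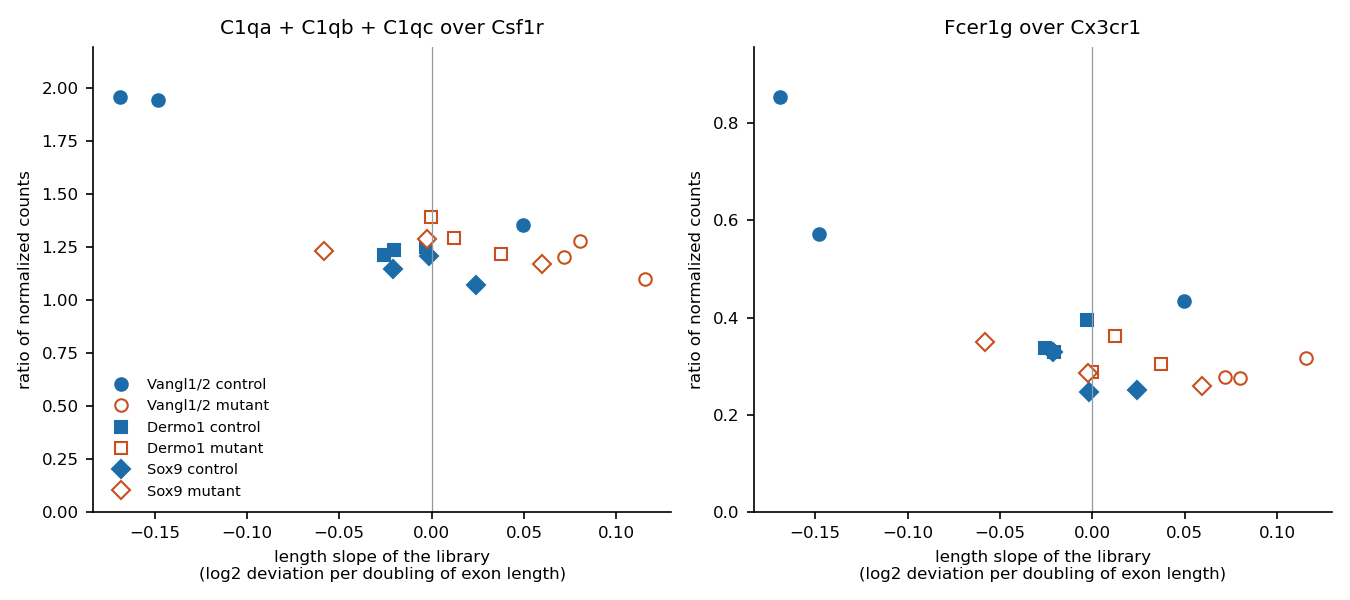
Ratio of normalized counts (y axis, from 0) in each of the 18 libraries against the library's slope with exon length (x axis, log2 deviation per doubling of length), for the summed C1q chains over *Csf1r* (left) and *Fcer1g* over *Cx3cr1* (right). *Vangl1/2* control replicates 1 and 3 stand alone at the upper left with ratios of 1.95 and 1.96 on the left and 0.571 and 0.855 on the right. Both ratios set short genes over long ones.

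The *Dermo1*Cre comparison asked which genes depend on *Wnt5a* from the mesenchyme. None of the 10 genes was called by limma, edgeR or DESeq2, where 0.014%, 0.014% and 0.637% of all genes were called. At an unadjusted p below 0.05, each of the 3 tools found 1 gene lower, *Tyrobp*, with limma doing so for 4.76% of all genes. *Tyrobp* had 83.2, 83.3 and 125 normalized counts in the controls and 51.4, 69.5 and 70.9 in the mutants. The groups did not overlap, and the log2 fold change was −0.58 (SE 0.20, adjusted p = 0.414 by limma). *Fcer1g*, the other adaptor, had 134, 117 and 119 in the controls and 107, 98.2 and 117 in the mutants. Its groups did not overlap either, but the highest mutant lay only 0.593 normalized counts below the lowest control, and the log2 fold change was −0.20 (SE 0.13). These 2 genes compare with 7.92% of all genes whose groups did not overlap with the mutants lower. Removing the trend with length left *Tyrobp* at −0.52 (SE 0.19) and *Fcer1g* at −0.14 (SE 0.13).

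The remaining genes of this experiment differed little. *Csf1r* had 474, 497 and 596 in the controls and 494, 442 and 464 in the mutants (log2 fold change −0.16, SE 0.09). *Cx3cr1* was steady, with 340, 357 and 352 against 351, 340 and 323 (−0.05, SE 0.07), and *Mrc1* had a log2 fold change of −0.01 (SE 0.09). The C1q chains had −0.03, −0.05 and −0.18, all within 2 standard errors of 0, and their sum was 643 ± 69.6 normalized counts in the controls and 605 ± 7.93 in the mutants (SD, n = 3). *Lyve1* had 963, 920 and 825 against 715, 859 and 854 (−0.16, SE 0.08), and *Aif1* 0.11 (SE 0.30). In all, 9 of the 10 genes had log2 fold changes below 0, against 49.7% of all genes, with a median of −0.11 against 0.00. Without control replicate 3, in which lymphoid markers were high, the median was −0.05, with 8 genes below 0, and *Tyrobp* had −0.39 and *Csf1r* −0.06. Without control replicate 1 the number of the 10 genes at an unadjusted p below 0.05 was 2, and without mutant replicate 1 it was 0. In the order named, 650 and 387 of all 14277 genes were lower at that level, and 769 and 593 higher.

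The *Sox9*Cre comparison asked the same for *Wnt5a* from the epithelium, a day later. None of the 10 genes was called by limma or edgeR, which called 0% of all genes, or by DESeq2, which called 0.0738%. Each tool found 1 gene at an unadjusted p below 0.05, *Csf1r*, lower in the mutants, while limma found 2.81% of all genes lower at that level. *Csf1r* had 755, 670 and 622 normalized counts in the controls and 607, 578 and 484 in the mutants. Every mutant lay below every control, as in 4.36% of all genes, with 15.5 normalized counts between the nearest libraries. The log2 fold change was −0.30 (SE 0.10, adjusted p = 1.0 by limma). Without control replicate 1 or mutant replicate 3 none of the 10 genes was left at an unadjusted p below 0.05, and without control replicate 3 there were 2. In the order named, 254, 522 and 221 of all 14293 genes were lower at that level, and 112, 206 and 94 higher.

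Most of the other genes in the *Sox9*Cre lungs had slightly lower means in the mutants, with overlapping groups. *C1qc* had 267, 257 and 201 in the controls and 211, 225 and 155 in the mutants (log2 fold change −0.30, SE 0.17). *C1qa* and *C1qb* had −0.18 (SE 0.17) and −0.11 (SE 0.12). *Tyrobp* (−0.15, SE 0.14) and *Fcer1g* (−0.03, SE 0.17), which had the largest differences in the E12.5 experiments, stood near 0 here, although the difference between experiments was not tested. *Cx3cr1* had −0.15 (SE 0.09), *Mrc1* −0.04 (SE 0.11) and *Aif1* −0.39 (SE 0.24). *Lyve1* was the exception, with 969, 851 and 937 in the controls and 979, 965 and 1031 in the mutants (0.11, SE 0.07). The number of genes below 0 was 9 of 10, against 49.3% of all genes, with a median of −0.15 against 0.00. Removing the trend with length left the median at −0.15. Without control replicate 1, in which lymphoid markers were high, it was −0.09 with 8 genes below 0, and *Csf1r* had −0.22.

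The 3 experiments have separate controls, and the values of the 10 genes can be set side by side. *Csf1r*, *C1qa*, *C1qb*, *C1qc*, *Tyrobp* and *Fcer1g* had log2 fold changes below 0 in all 3 experiments, although *C1qa* and *C1qb* in the *Dermo1*Cre lungs turned to 0.03 and 0.00 when the trend with length was removed, and *Csf1r* in the *Vangl1/2* lungs kept its sign in 12 of 17 alternatives. *Fcer1g* in the *Sox9*Cre lungs turned to 0.14 without control replicate 1 and was also above 0 without mutant replicate 3. Of all 13980 genes tested in the 3 experiments, 14.8% were below 0 in each. *Lyve1* was below 0 in both E12.5 experiments and above 0 at E13.5. *Aif1* was above 0 in the *Dermo1*Cre lungs, and with the trend removed also in the *Vangl1/2* lungs (0.10). Pan-leukocyte genes had a like sign. Of the 9 tested, 6, 8 and 9 were below 0 in the 3 experiments, in the order used so far, and none was called. Their medians were −0.26, −0.31 and −0.23, or −0.14, −0.27 and −0.23 with the trend with length removed. Without the 2 controls with high lymphoid markers, which had the highest sums of this list in their experiments, the *Dermo1*Cre and *Sox9*Cre medians were −0.13 and −0.14, with 7 of 9 below 0 in both. *Rac2*, a small GTPase of blood cells, had the smallest p of this list in each experiment. In the *Vangl1/2* experiment it had 179 ± 17.8 normalized counts against 129 ± 28.2 in the mutants (SD, n = 3). It had 150 ± 14.8 against 107 ± 6.84 in the *Dermo1*Cre and 175 ± 31.8 against 134 ± 19.3 in the *Sox9*Cre experiment. Its groups did not overlap in any of the 3, but the adjusted p-values by limma were 0.235, 0.271 and 1.0. Of all genes, 8.68%, 7.92% and 4.36% had groups apart with the mutants lower. Its log2 fold changes were −0.49, −0.49 and −0.38, and the latter pair became −0.41 and −0.24 without those 2 controls. In the *Vangl1/2* experiment it had −0.38 with the trend with length removed. *Lcp1*, which bundles actin in leukocytes and is the most abundant gene of the list, had log2 fold changes of 0.11, −0.10 and −0.01.

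Regulators of macrophages gave no common direction. *Csf1*, the ligand of CSF1R, had 388 ± 101 normalized counts in the *Vangl1/2* controls and 511 ± 44.4 in the mutants (SD, n = 3, log2 fold change 0.42, limma's adjusted p = 0.243). In the *Dermo1*Cre and *Sox9*Cre lungs its log2 fold changes were −0.05 and −0.09. *Sfpi1* (*Spi1*), which encodes PU.1, had −0.32 (SE 0.27), −0.33 (SE 0.16) and −0.20 (SE 0.13), all with overlapping groups. *Maf* and *Zeb2*, transcription factors that mesenchymal and endothelial cells express as well, had 0.41 and 0.44 in the *Vangl1/2* lungs. With the trend with length removed these were 0.22 and −0.05. Of the 9 myeloid transcription factors, 4 were below 0 in the *Vangl1/2*, 8 in the *Dermo1*Cre and 7 in the *Sox9*Cre lungs, and none was called. The other tissue macrophage markers had medians of −0.12, 0.00 and −0.05, and *Stab1*, the most abundant of them, had 0.34, −0.05 and 0.00. With the trend with length removed, the *Vangl1/2* median was 0.04 and *Stab1* had 0.07 there.

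The controls of the 3 experiments were set side by side to describe the genes at E12.5 and E13.5. Since the tables were normalized separately, levels are given here in RPM. Stage, Cre line and table cannot be told apart, and no test was made. The *Vangl1/2* controls, labelled Vangl1-/-, also differ in genotype from the other controls. *Csf1r* stood at 46.7, 41.2 and 38.5 RPM in the *Sox9*Cre controls at E13.5 and at 29.4, 30.7 and 37.4 in the *Dermo1*Cre controls at E12.5. *Cx3cr1* stood at 27.4, 25.3 and 25.0 against 21.1, 22.1 and 22.1. *Mrc1* stood at 64.2, 57.7 and 67.9 against 53.5, 52.3 and 53.9. All 3 receptor genes were higher in each E13.5 control than in each E12.5 control of both tables, as were 2.96% of the 13980 genes that passed the filter in all tables. *C1qb* (20.8, 20.8 and 17.9 against 14.8, 15.4 and 15.8) was higher than in each *Dermo1*Cre control but overlapped with the *Vangl1/2* controls. The ratios of the means to those of the *Dermo1*Cre controls were 1.30 for *Csf1r*, 1.19 for *Cx3cr1*, 1.19 for *Mrc1* and 1.29 for *C1qb*.

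The other 6 genes overlapped between the stages. *C1qa* and *C1qc* had ratios of 1.10 and 1.20, *Aif1* 1.51 on few reads, and *Lyve1*, *Tyrobp* and *Fcer1g* 1.01, 1.02 and 0.935. The 4 genes that stood apart compare with 8.08% of all genes higher than in each *Dermo1*Cre control. Against the *Vangl1/2* controls 3 stood apart, with 20.9% of all genes. The median ratio was 1.19 for the 10 genes and 1.01 for all genes. Other tissue macrophage markers had a median of 1.14, with 5 of 13 apart and higher, and the list of immune receptors, kinases and signaling proteins 1.17. Neutrophil and monocyte markers had 1.30, with 2 of 4 apart and higher, and lymphatic endothelial markers 1.24 with none of 5 apart. Blood endothelial markers had 0.985 with none of 10 apart, and the myeloid transcription factors 0.975. The *Vangl1/2* controls had lower levels of *Csf1r*, *Cx3cr1* and *Mrc1* than the *Dermo1*Cre controls of the same stage, with ratios of 0.750, 0.796 and 0.775. *Lyve1*, *C1qa* and *Aif1* had 0.914, 0.955 and 0.956. *Fcer1g*, *Tyrobp*, *C1qb* and *C1qc*, all short genes, went the other way with 1.36, 1.20, 1.10 and 1.07. The part of the trend with exon length in these ratios was not tested. For the 3 receptor genes, the difference between these 2 groups of controls at E12.5 is thus of the size of the difference between the stages. The 2 groups differ in genotype as well as in table.

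**Figure D4:**
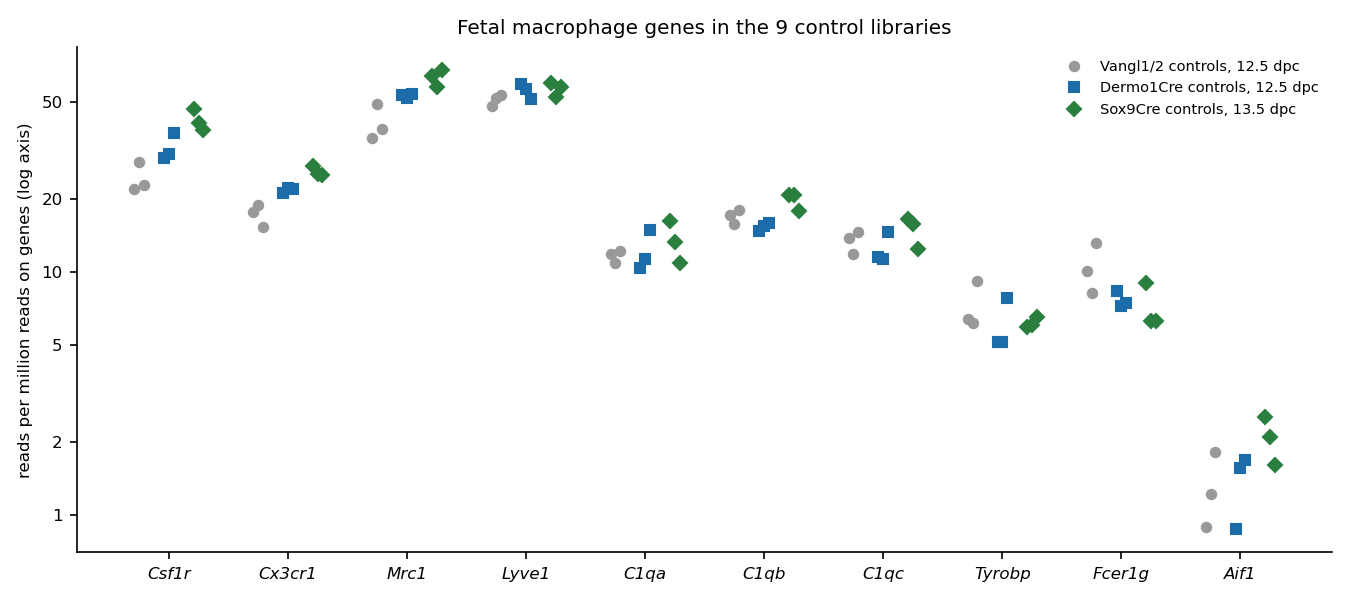
Level in RPM (y axis, log scale) of the 10 macrophage genes in each of the 9 control libraries. *Csf1r*, *Cx3cr1* and *Mrc1* of the *Sox9*Cre controls at E13.5 lie above all E12.5 controls, and *Lyve1*, *Tyrobp* and *Fcer1g* overlap.

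Finally, it was described which of the genes varied together between libraries of the same group. Group means were subtracted from the log2 values, the deviations were scaled within each table, and Pearson's r was taken over the 18 libraries, which share depth and RNA quality within a library. *C1qa* and *C1qc* had the highest r of the 45 pairs, with 0.92, and *Csf1r* had 0.73, 0.69 and 0.71 with *C1qa*, *C1qb* and *C1qc*. With the trend with length removed these values were 0.88, 0.85, 0.72 and 0.85. *C1qb* had 0.49 with *C1qa* and 0.61 with *C1qc*. *Mrc1* had −0.47 with *C1qa*, −0.38 with *C1qc* and −0.42 with *Tyrobp*, and these shrank to −0.13, −0.11 and −0.07 with the trend removed. Each gene was also compared with the mean of the other 9. *Csf1r* (0.76), *C1qc* (0.73), *C1qa* (0.73) and *C1qb* (0.64) were the most alike, *Fcer1g* (0.47), *Tyrobp* (0.45) and *Aif1* (0.35) less so, and *Cx3cr1* (0.22), *Lyve1* (0.02) and *Mrc1* (−0.20) least. The order at the lower end was not firm. With the trend with length removed *Mrc1* had 0.20, *Cx3cr1* 0.40 and *Lyve1* −0.07, and without the *Vangl1/2* libraries *Mrc1* had −0.17, *Cx3cr1* 0.00, *Lyve1* −0.36 and *Tyrobp* 0.13. *Lyve1* had an r of −0.14 with the mean of the 5 lymphatic endothelial markers and −0.11 with that of the 10 blood endothelial markers, and *Mrc1* had 0.52 and 0.06. With the trend removed, the values with the lymphatic markers were 0.10 for *Lyve1* and 0.29 for *Mrc1*.

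**Figure D5:**
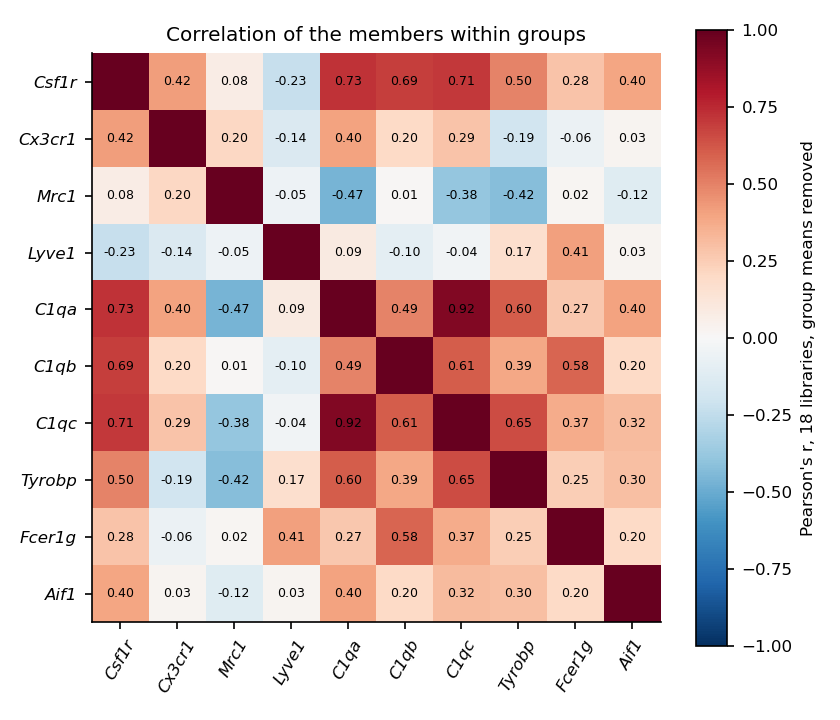
Pearson's r between the 10 macrophage genes over 18 libraries after group means were removed (color and number, from −1 to 1). *Csf1r* and the 3 C1q chains form the reddest block, with r between 0.49 and 0.92, and the row of *Lyve1* runs from −0.23 with *Csf1r* to 0.41 with *Fcer1g*.

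The genes outside the 10 whose levels were most like the mean of the 10 were *Sepp1* (r = 0.86), which encodes the plasma selenoprotein P, *Nckap1l* (0.85), an actin regulator of blood cells, and *Apoe* (0.83), the apolipoprotein E. *Oit3*, *Krt14*, *Fmo5*, *Trim47*, *Wdr1*, *Rpp25* and *Arhgap9* followed with r between 0.80 and 0.83. This list depends on the libraries. Without the 6 libraries of the *Vangl1/2* experiment 2 of the 10 genes were still among the first 10, and with the trend with length removed 3. *Sepp1* had 0.95 and 0.78 in these settings, and *Apoe* 0.86 and 0.77. The pan-leukocyte genes had a median r of 0.61, other tissue macrophage markers 0.38, and blood and lymphatic endothelial markers −0.14 and −0.31.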

How the data were processed

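Bulk RNA-Seq of whole embryonic lungs was analyzed in 18 libraries, 3 mutant and 3 control in each of 3 experiments. The submitters' processing notes name Trim Galore, HISAT2, featureCounts and DESeq2 with the mm10 build, without versions. The deposited values are a signal that the authors made by dividing gene counts by a size factor of each library (0.952 to 1.07). All values were whole multiples of 1 step per library (100% within 0.001 reads, largest deviation 3.74e-05), so that reads per gene were recovered. The authors' columns of mean level, log2 fold changes and p-values were not used. Of the 23420 rows, 27 had names turned into dates and 4 shared a symbol with another row.

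Mutants and controls were compared within each table by limma (version 3.58.1, R 4.3.3) with a mean-variance trend, on log2 of the normalized count plus 1, for genes that reached 10 normalized counts in 3 or more of 6 libraries. A fold change on this scale understates that of low genes. Adjustment followed Benjamini and Hochberg over all genes tested, with a threshold of 0.05. edgeR's quasi-likelihood test (4.0.16, TMM) and DESeq2 (1.42.0) on the recovered reads were alternatives, beside other scaling, filter, pseudocounts (0.5 and 10), removal of the trend with length, a replicate block and leaving out each library. With 3 against 3 libraries, an exact permutation test of a single gene cannot go below p = 0.1. Scripts were tested on simulated data. Exon lengths and positions are from GENCODE mouse release M21 (GRCm38, the same assembly as mm10), which paired with 98.4% of the rows, and promoter sequences from RefSeq. Whether counting used strand is not given in the sources used here, so reads of *Csf1r* and *Hmgxb3*, which overlap on opposite strands, may be shared. *Cx3cr1* also overlaps several genes in its longest annotated form. Figures were drawn with Python (3.11.15).

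The 10 genes and 13 further lists of pathway and cell type genes were chosen with earlier results of these data known. Other genes named were taken from the targeted genes, in each list the genes called, the 3 most abundant and the one with the smallest p in each experiment, and the 10 genes most like the mean of the 10. *Emr1*, *Cd68*, *Cd163*, *Timd4*, *Fcer1a*, *Cd3g*, *Rag1* and *Vangl1* were named outside this rule, after their values were seen. Not all genes that the rule allows are described. Leaving the 2 controls with high lymphoid markers out of the lists was decided after seeing the data.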

Additional observations from a re-analysis of the deposited data

How the results depend on the processing

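Of the 30 single-gene fold changes, those called under any alternative were in the *Vangl1/2* experiment. The number of the 10 genes called there was 0 in all alternatives except the fit of all 18 libraries (4) and leaving out single libraries (0 to 7). The number at an unadjusted p below 0.05 was 5, and 6 with TMM scaling or in the fit of all 18 libraries. It was 4 with DESeq2 and 2 after the trend with length was removed (alone or with a replicate block). When single libraries were left out it was 1 to 7. Of all 14303 genes, 1224 were lower at that level and 1714 higher. With TMM scaling these were 1402 and 1577, and in the fit of all 18 libraries 2773 and 2780. DESeq2 had 1455 lower and 1568 higher of 15970 genes. Without control replicate 2, where the number was 7, 3631 of all genes were lower and 3601 higher. The median log2 fold change of the 10 genes in this experiment was −0.34 and became −0.10 with the trend removed (also with the block). It ran from −0.44 to −0.28 without single libraries. With control replicate 2 as the lone control, chosen after seeing the data, the median was −0.22. In the *Dermo1*Cre and *Sox9*Cre experiments 0 genes were called under every alternative run, the medians ran from −0.14 to −0.05 and from −0.22 to −0.08 without single libraries, and the numbers at an unadjusted p below 0.05 from 0 to 2 in both. The deviations of same-numbered libraries correlated between −0.22 and 0.30. With 3 libraries in each group, such values cannot decide whether replicate numbers pair the libraries. With a replicate block, the *Sox9*Cre number became 2, with or without the trend, and the *Vangl1/2* number was 4. With the block, 530 of all 14293 genes were lower at that level in the *Sox9*Cre experiment and 231 higher. With the trend also removed these were 595 and 280 of 14179 genes. In the *Vangl1/2* experiment with the block, 1244 of all 14303 genes were lower and 1766 higher. The log2 median ratio between stages was 0.25, and between 0.19 and 0.29 over its alternatives. Of the 10 genes most like the mean, 2 were shared without the *Vangl1/2* libraries and 3 with the trend removed. The causes were not tested. Depth limits *Aif1* most.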

Other observations

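Other lists of blood and complement genes held values that the comparisons above did not use. In the *Vangl1/2* lungs, 8 of the 9 other complement genes tested had log2 fold changes above 0 (median 0.21), opposite in sign to the C1q chains. *Cd93*, a surface glycoprotein of endothelial and myeloid cells, was the most abundant of them. It had 2505 ± 379 normalized counts in the controls and 3338 ± 242 in the mutants (SD, n = 3), with an adjusted p of 0.233 by limma. In the *Sox9*Cre lungs 7 of 10 were below 0 (median −0.18). *Ccr2*, a chemokine receptor of monocytes, had 76.2 ± 7.78 in the *Sox9*Cre controls and 54.4 ± 2.75 in the mutants (SD, n = 3), with an adjusted p of 1.0 by limma. Its groups did not overlap, as in 4.36% of all genes with the mutants lower.

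*Cpa3*, a protease of mast cells, had 77.9 ± 17.3 normalized counts in the *Dermo1*Cre controls and 49.0 ± 1.39 in the mutants (SD, n = 3), with an adjusted p of 0.334 by limma. Its groups did not overlap, as in 7.92% of all genes with the mutants lower. *Kit*, the receptor tyrosine kinase that mast cells share with other cells and the other mast cell marker tested, had 983 ± 63.3 and 1073 ± 61.4, which overlapped. *Fcer1a*, the ligand-binding chain that pairs with *Fcer1g* in the IgE receptor, was listed at 0 in all 18 libraries. The erythroid markers summed to between 20499 and 52577 normalized counts. *Beta-s*, an adult beta globin, had 7863 ± 939 in the *Vangl1/2* controls and 4068 ± 765 in the mutants (log2 fold change −0.96, and −0.54 with the trend with length removed), with an adjusted p of 0.233 by limma, 0.239 by edgeR and 0.000131 by DESeq2. The other 6 erythroid markers tested there had log2 fold changes from −0.49 to 0.12, with 3 above 0, and none was called by any of the 3 tools.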
